A study of Mus musculus with 3 samples.

Results

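The 4 genes of haem breakdown, Hmox1, Hmox2, Blvra and Blvrb, were read on arrays of whole mouse embryos that lack MafF and MafK, with or without MafG. They were taken by symbol, through the RefSeq accession of each probe, from 13184 genes that were above background on at least 1 array. Each of the 4 had 1 probe, printed once, and all 4 probes were well above background on all 3 arrays. The triple null group was MafF-/-:MafG-/-:MafK-/- at E10.5. The MafG-intact groups, 1 of E10.5 and 1 of E9.5, were MafF-/-:MafG+/+:MafK-/-, so embryos of all groups lacked MafF and MafK, and no wild-type array was analysed here. Each group was 1 array with RNA of 3 pooled embryos of mixed background, and a difference between arrays has no replicate check and no test.

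Haem oxygenases open the haem ring and release biliverdin, carbon monoxide and ferrous iron, with electrons passed on from NADPH by cytochrome P450 reductase. Biliverdin reductases then make bilirubin. Hmox1 encodes the inducible oxygenase, which responds to haem and oxidative stress and is high in macrophages that clear red cells, while Hmox2 encodes the constitutive one. The repressor BACH1 and the activator NRF2 both bind the enhancers of Hmox1 as dimers with small Maf proteins, which is why this enzyme is a standard readout of small Maf function. Whole embryos of these stages hold blood, heart, neural tube, somites and early liver together.

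Mafg, the gene that separates the genotypes, was read first. Its level was -7.74 in the triple null pool, 0.48 in the MafG-intact E10.5 pool and 1.03 in the MafG-intact E9.5 pool, where a level is the log2 intensity minus the 75th percentile of the array. The triple null probe was not well above background, and Mafg was lower there by at least 173-fold relative to MafG-intact E10.5. Between 69.1% and 70.4% of 41174 probes were well above background on each array, and the arrays shared slide 1 and scan 1. The sexes of the pools differed: among the 3 pools, Xist was above background in MafG-intact E10.5 alone, where Uty, Kdm5d, Eif2s3y and Ddx3y of the Y chromosome were not. Group and sex cannot be told apart in any comparison with the MafG-intact E10.5 array, and genotype and stage cannot between the triple null and E9.5 arrays. Hmox1, Hmox2, Blvra and Blvrb lie on chromosomes 8, 16, 2 and 7. Maff and Mafk were above background on all arrays. Whether the probes of these 3 Maf genes lie in the deleted parts is not given in the sources used here.

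Hmox1 was higher in the triple null pool than in either MafG-intact pool. Its intensity before scaling was 5455 in the triple null E10.5 pool, 2741 in the MafG-intact E10.5 pool and 2002 in the MafG-intact E9.5 pool. As multiples of the 75th percentile of each array these are 5.06, 1.93 and 1.88 in the same order. One array thus stood high and the MafG-intact arrays of both days lay side by side. The log2 difference was 1.39 (2.62-fold higher) against MafG-intact E10.5 and 1.43 (2.69-fold higher) against MafG-intact E9.5, and between the MafG-intact days it was 0.04. The scanner software puts the error of each spot at 10% of its signal, which gives 0.20 on the log2 scale for a difference of 2 spots. Probes printed 10 times near the members' levels had a median SD of 0.05 to 0.08 (log2) within an array. Both errors cover printing and scanning and not the embryos, so the number of arrays limits the precision.

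**Figure D1:**
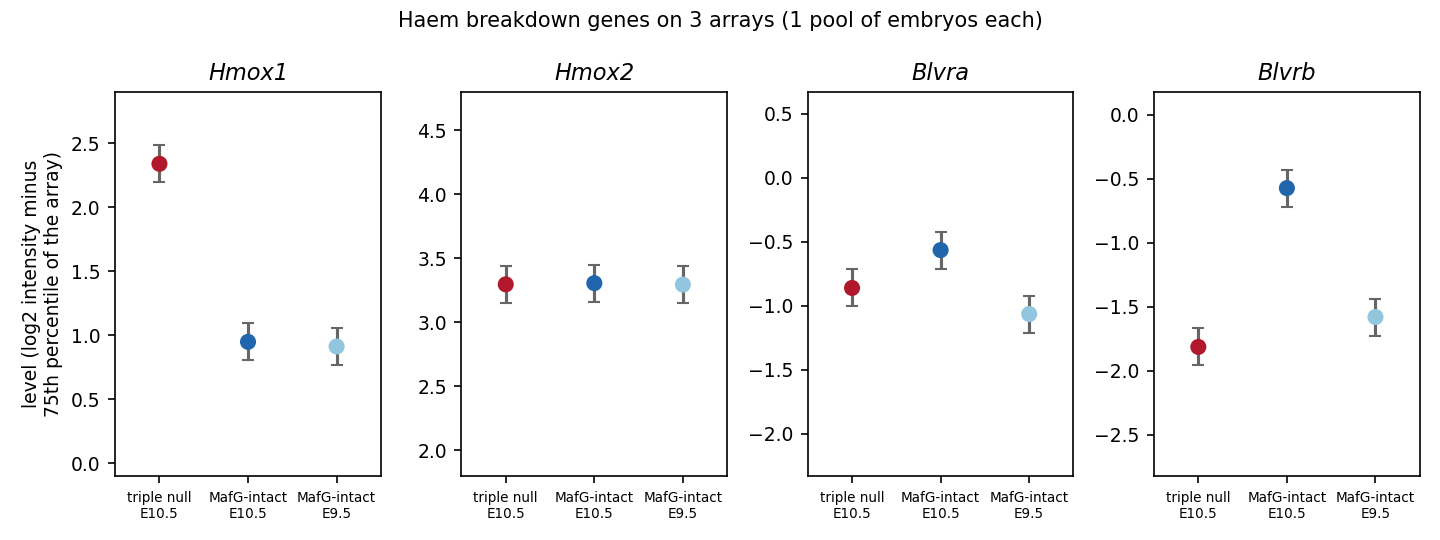
Level of each gene (log2 intensity minus the 75th percentile of the array) on the array of each group. Points are single spots, error bars the scanner software's spot error, and all panels span the same range. Hmox1 stands at 2.34 in the triple null pool against 0.95 and 0.91, Hmox2 is level near 3.30, and Blvrb is highest in the MafG-intact E10.5 pool.

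Hmox2, the constitutive oxygenase, was at nearly the same level on all arrays. Its multiple of the 75th percentile was 9.81 in the triple null pool, 9.88 in the MafG-intact E10.5 pool and 9.80 in the MafG-intact E9.5 pool. The log2 differences were -0.01, 0.01 and 0.00 in the genotype comparison (triple null over MafG-intact, both E10.5), the stage comparison (MafG-intact, E10.5 over E9.5) and the cross-stage comparison (triple null at E10.5 over MafG-intact at E9.5). Values this close to 0 had no settled sign: quantile normalization gave -0.07, 0.07 and -0.0043, and scaling on spike-in probes gave 0.01, -0.02 and -0.00075. The change of the inducible gene relative to the constitutive one does not depend on how arrays are scaled, apart from the signal-dependent methods. Hmox1 minus Hmox2 was 1.40 in the genotype comparison and 1.42 in the cross-stage one, with a spot error of 0.29, and 0.02 between the MafG-intact days.

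The biliverdin reductase genes were highest in the MafG-intact E10.5 pool. Blvrb encodes the enzyme that reduces biliverdin IX beta and flavins and is abundant in red cells. Its intensity was 306 in the triple null pool, 953 in the MafG-intact E10.5 pool and 355 in the MafG-intact E9.5 pool, or 0.284, 0.671 and 0.334 times the 75th percentile. The triple null value lay near that of the younger MafG-intact pool and well under that of the same day. The log2 difference was -1.24 (2.36-fold lower) against MafG-intact E10.5 and -0.23 against MafG-intact E9.5. Between the MafG-intact days Blvrb was 1.01 higher at E10.5, which is 2.01-fold and only just past the 2-fold line used here. It fell short of that line with normexp background correction (0.88), spike-in scaling (0.98) and scaling on the median of detected genes (0.996).

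Blvra encodes the reductase of biliverdin IX alpha, the form that haem oxygenase makes. It too was highest in the MafG-intact E10.5 pool but, unlike Blvrb, lowest in the MafG-intact E9.5 pool, at 0.551 times the 75th percentile in the triple null pool, 0.676 in the MafG-intact E10.5 pool and 0.478 in the MafG-intact E9.5 pool. Its log2 differences were -0.30, 0.50 and 0.20 in the genotype, stage and cross-stage comparison. The genotype and cross-stage values are within 1.5 times the spot error of 0.20. On the log2 scale Blvra minus Blvrb was 0.94 in the genotype comparison and -0.51 in the stage comparison, with a spot error of 0.29 each that does not cover the embryos.

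RefSeq start-site windows (build GRCm38.p6) were held for 3 of the 4 genes: 3 windows for Hmox2, 1 for Blvra and 2 for Blvrb. The bases before the annotated gene are shown for the reductase genes because both genes were lower in the genotype comparison and higher in the stage comparison. Capitals mark matches to the motifs searched. Blvra is at chr2:127070407-127070628 and Blvrb at chr7:27447728-27447977, both on the plus strand.
Blvra: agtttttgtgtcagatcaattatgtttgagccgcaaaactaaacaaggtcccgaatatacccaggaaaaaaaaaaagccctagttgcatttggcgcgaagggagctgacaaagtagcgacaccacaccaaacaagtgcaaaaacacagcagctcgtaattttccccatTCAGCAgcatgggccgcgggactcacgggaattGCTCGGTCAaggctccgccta
Blvrb: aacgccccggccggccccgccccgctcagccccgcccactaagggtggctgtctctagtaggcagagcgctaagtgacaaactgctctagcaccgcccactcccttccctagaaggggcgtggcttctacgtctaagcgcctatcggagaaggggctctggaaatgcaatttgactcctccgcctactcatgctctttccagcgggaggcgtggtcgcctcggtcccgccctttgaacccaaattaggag

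Both strands were searched for the antioxidant element core, spelled TGACNNNGC, and for a Maf half-site, which is spelled TGCTGA. The AP-1 type motif was searched as TGAGTCA. The E-box was searched as CACGTG, and the core of the hypoxia element, whose letters also lie inside the E-box, was searched as ACGTG. The motif of GATA type was searched as AGATAA. In the 300-base Blvra window both matches were on the minus strand. Counted along the plus strand, the antioxidant core match began 49 bases and the half-site match 82 bases before the start site. That start site follows the first 250 bases of the window. The Blvra sequence shown stops earlier, at base 222, where the annotated gene begins, so these positions are not distances from its end. Of 32851 mouse windows of this length, 12.4% held the antioxidant core and 19.5% the half-site, so neither is rare. The AP-1 type motif was found in 5.20%, the E-box in 7.15%, the hypoxia core in 19.6% and the GATA type motif in 11.2% of windows. The Blvrb window shown and the 3 Hmox2 windows held none of the 6 motifs, and the second Blvrb window held 1 hypoxia core, 123 bases before its start site. A match is a description of letters, and binding was not measured.

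The 4 genes were set beside all genes that both arrays of a comparison detected above background. In the genotype comparison 1 of 4 was at least 2-fold higher (Hmox1) and 1 of 4 at least 2-fold lower (Blvrb), beside 0.982% and 4.47% of 12529 genes. Hmox1 ranked 56 from the highest, and 9 among the 6215 genes at or above the median level, while Blvrb ranked 396 from the lowest. In the stage comparison, Blvrb was at least 2-fold higher, at rank 509 from the highest of 12514 genes, of which 4.12% were at least 2-fold higher and 1.07% at least 2-fold lower. In the cross-stage comparison, Hmox1 was at least 2-fold higher, at rank 9 of 12521 genes, of which 0.256% were at least 2-fold higher and 0.527% lower. Hmox1 therefore stood among the extreme genes of the comparisons that involve the triple null pool and in the middle of the one that does not, at rank 4810. Hmox2 lay near the middle in all comparisons.

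**Figure D2:**
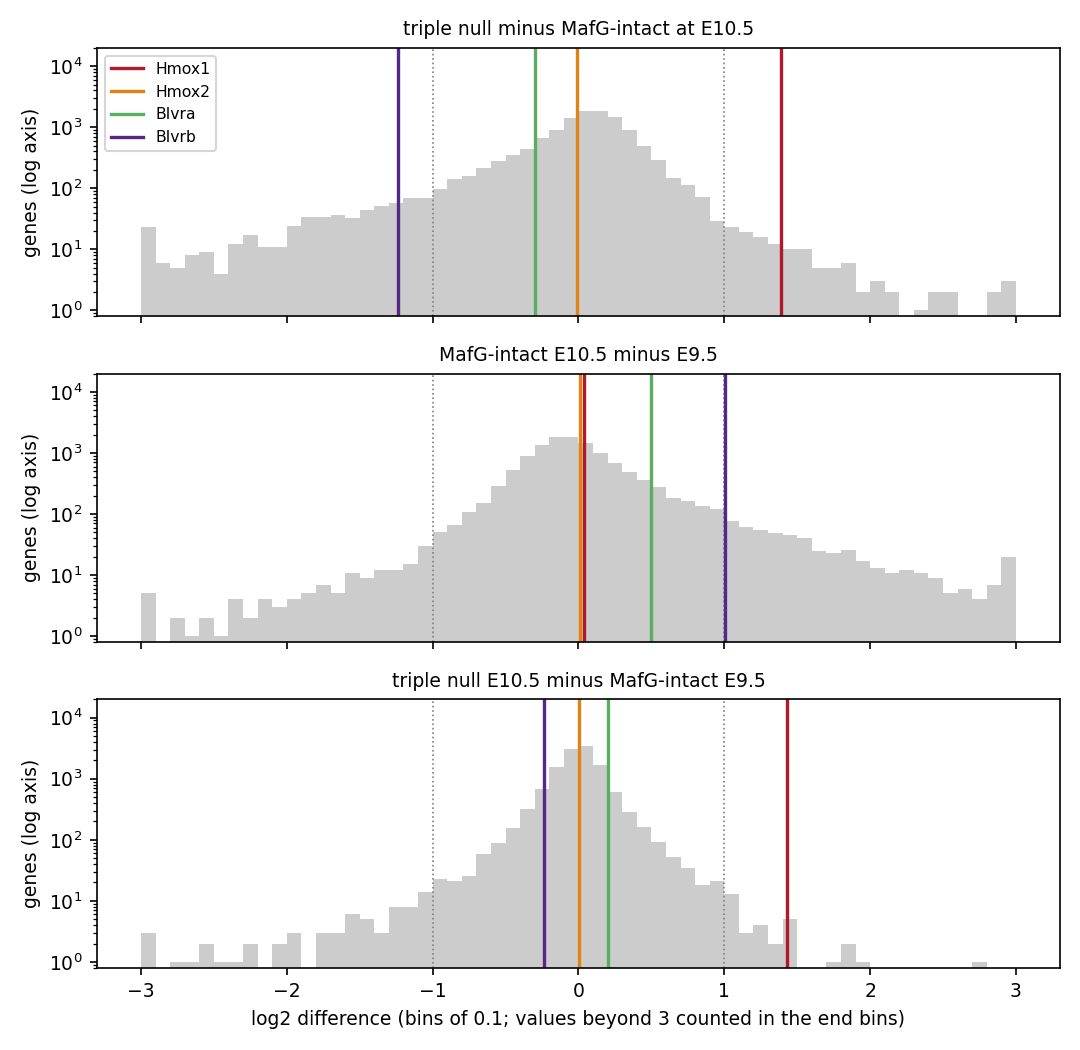
Log2 differences of all genes above background on both arrays (grey, number of genes on a log axis) in the 3 comparisons, with the 4 haem breakdown genes as coloured lines and 2-fold as dotted lines. Hmox1 lies at 1.39, 0.04 and 1.43 from top to bottom, and Blvrb at -1.24, 1.01 and -0.23.

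Against both MafG-intact arrays at once, triple null levels were higher by 2-fold or more for 10 of the 12429 genes detected on every array, and lower by as much for 23. At or above the median level there was 1 such higher gene among 6215, and it was Hmox1. With no limit on level, 6 of the 12429 genes, Hmox1 included, were higher than both by at least its smaller difference of 1.39. The count of 1 at or above the median level depends on averaging the probes of each gene. The brightest Rtn4 probe alone was 1.42 higher than MafG-intact E10.5 and 1.40 higher than MafG-intact E9.5. By that probe Rtn4 too was past 2-fold against both. The comparisons share the triple null array, so the agreement of its differences is not a second observation.

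Genes with patterns most like those of Hmox1 and Blvrb were sought over the 3 arrays among genes at or above the median level, by the root mean square distance of levels centred on each gene's mean. For Hmox1 the nearest were Rtn4 (0.21), U2af1 (0.24), Lmnb1 (0.25), Tmem121 (0.31) and Aldh2 (0.32), all distances on the log2 scale. Among genes at or above the median level the match was loose. Rtn4, a reticulon of the endoplasmic reticulum, was 0.91 higher than MafG-intact E10.5 and 1.02 higher than MafG-intact E9.5 as a mean of its probes. Its brightest probe alone gave 1.42 and 1.40. For Blvrb the nearest were Acss1 (0.04), Dusp26 (0.06), Alas2 (0.06), Plk3 (0.07) and Mgst3 (0.07). Alas2, the erythroid first enzyme of haem synthesis, differed by -1.28 in the genotype comparison and by 1.16 in the stage comparison. In all, 2 genes lay within 0.1 of the Hmox1 pattern, 113 of the Blvrb pattern, 705 of the Blvra pattern and 5141 of the nearly flat Hmox2 pattern, with no limit on level. The 2 near Hmox1 were Hspb7 and Txndc16, both below the median level. Hspb7 was 1.39 higher than MafG-intact E10.5 and 1.45 higher than MafG-intact E9.5, and Txndc16 1.32 and 1.43 higher.

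Lists of related genes were read beside the shares over all genes in the genotype comparison, where 0.982% were at least 2-fold higher and 4.47% at least 2-fold lower. At these shares, counts of 0 or 1 in lists of this size are near the background and show nothing particular to a list. Por, the reductase that passes electrons to haem oxygenase, differed by -0.32, 0.25 and -0.07 in the 3 comparisons. Of 7 measured genes of electron and NADPH supply, 1 was lower by 2-fold or more in the genotype comparison and none was higher by as much, beside 4.47% and 0.982% of all genes. The 7 differences ran between -1.71 and 0.27 with a median of -0.01, beside 0.06 for all genes. The lower gene was Me1, cytosolic malic enzyme, at levels of -2.35 in the triple null pool, -0.64 in MafG-intact E10.5 and -0.90 in MafG-intact E9.5. Me1 was 3.27-fold lower than MafG-intact E10.5 and 2.74-fold lower than MafG-intact E9.5, opposite to Hmox1 and likewise apart from both MafG-intact pools. With normexp correction Me1 was 2.67-fold and 2.35-fold lower.

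Genes that carry haem were next. Of 11 measured genes of haem transport and binding, 1 was at least 2-fold lower in the genotype comparison and none higher, beside 4.47% and 0.982% of all genes, with a median of -0.19. It was Hp, the haemoglobin-binding serum protein haptoglobin (-1.39), which was dim, at -5.52 in the triple null pool against -4.13 in MafG-intact E10.5 and -5.16 in MafG-intact E9.5. With normexp correction its genotype difference was -0.36 and its stage difference 0.26. In the stage comparison Hp was 1.03 higher at E10.5, beside 4.12% of all genes at least 2-fold higher, and the list median was 0.14. In the cross-stage comparison none of 11 was 2-fold apart, beside 0.256% of all genes higher and 0.527% lower, and the median was -0.03.

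Iron that leaves haem is stored in ferritin or exported. Of 11 measured genes of iron handling, 1 was lower by 2-fold or more in the genotype comparison and none higher, beside 4.47% and 0.982% of all genes. The median was 0.05. None was 2-fold apart in the stage comparison (4.12% of all genes higher, 1.07% lower) or the cross-stage one (0.256% and 0.527%). The lower gene was Trf, the serum iron carrier transferrin, at -1.43 in the genotype comparison and -0.84 in the cross-stage one. With normexp correction these were -1.07 and -0.63. The ferritin chain genes Fth1 and Ftl1 were at -0.09 and -0.19 in the genotype comparison and the iron exporter gene Slc40a1 at -0.75.

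Later steps were read where probes allowed. Of 8 listed genes of bilirubin conjugation and export, 3 were above background and none was 2-fold apart in any comparison. Over all genes the shares at least 2-fold higher and lower were 0.982% and 4.47% (genotype) and 4.12% and 1.07% (stage). In the cross-stage comparison they were 0.256% and 0.527%, so a count of 0 among 3 genes is near the background. The farthest of the 3 in the genotype comparison were the glutathione transferase gene Gsta3 (-0.74) and the transporter gene Abcc3 (-0.29). Ugt1a1, whose enzyme conjugates bilirubin, and Abcc2 were not above background on any array. The soluble guanylate cyclase genes Gucy1a1 and Gucy1b1, whose enzyme binds carbon monoxide, were both at -0.09 in the genotype comparison.

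Among the listed regulators of Hmox1, Mafg differed most, by at least 173-fold in the genotype comparison. Of the 16 other regulator genes above background on both arrays, none was 2-fold apart in the genotype comparison, beside 0.982% of all genes higher and 4.47% lower, and the median was 0.00. Bach1, the repressor gene, was at -0.02, 0.13 and 0.11 in the 3 comparisons, and Nfe2l2, which encodes NRF2, at -0.29, 0.21 and -0.07. Of these 16, the farthest from 0 in the genotype comparison were the AP-1 gene Jun (-0.64) and Nfe2 (-0.62), which encodes the erythroid partner of small Maf proteins. Keap1, whose protein holds NRF2 down, was at -0.56 in the genotype and -0.60 in the cross-stage comparison. Transcript levels of a regulator do not measure its protein or its binding.

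Other genes have been described as targets of BACH1, NRF2 and small Maf proteins. Of 19 measured, none was at least 2-fold higher and 1 (Me1) at least 2-fold lower in the genotype comparison, beside 0.982% and 4.47% of all genes. In this list 4 lay above 0 and 15 below, with a median of -0.19, beside a median of 0.06 for all genes. In the cross-stage comparison 5 lay above 0 and 14 below, with a median of -0.05, beside 0.005 for all genes. Me1 alone was again at least 2-fold lower, beside 0.527% of all genes. Gclm, a subunit of the first enzyme of glutathione synthesis and named after its value was seen, was the highest of the list at 0.70 and 0.92 in these comparisons. Nqo1, a quinone reductase gene, was at -0.82 and -0.18. Haem synthesis genes had 1 of 10 at least 2-fold lower in the genotype comparison, Alas2, beside 4.47% of all genes, and a median of -0.25, with a median of -0.04 in the cross-stage comparison. Me1, Fth1, Ftl1, Slc40a1 and Fech are among the genes counted in more than 1 list.

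**Figure D3:**
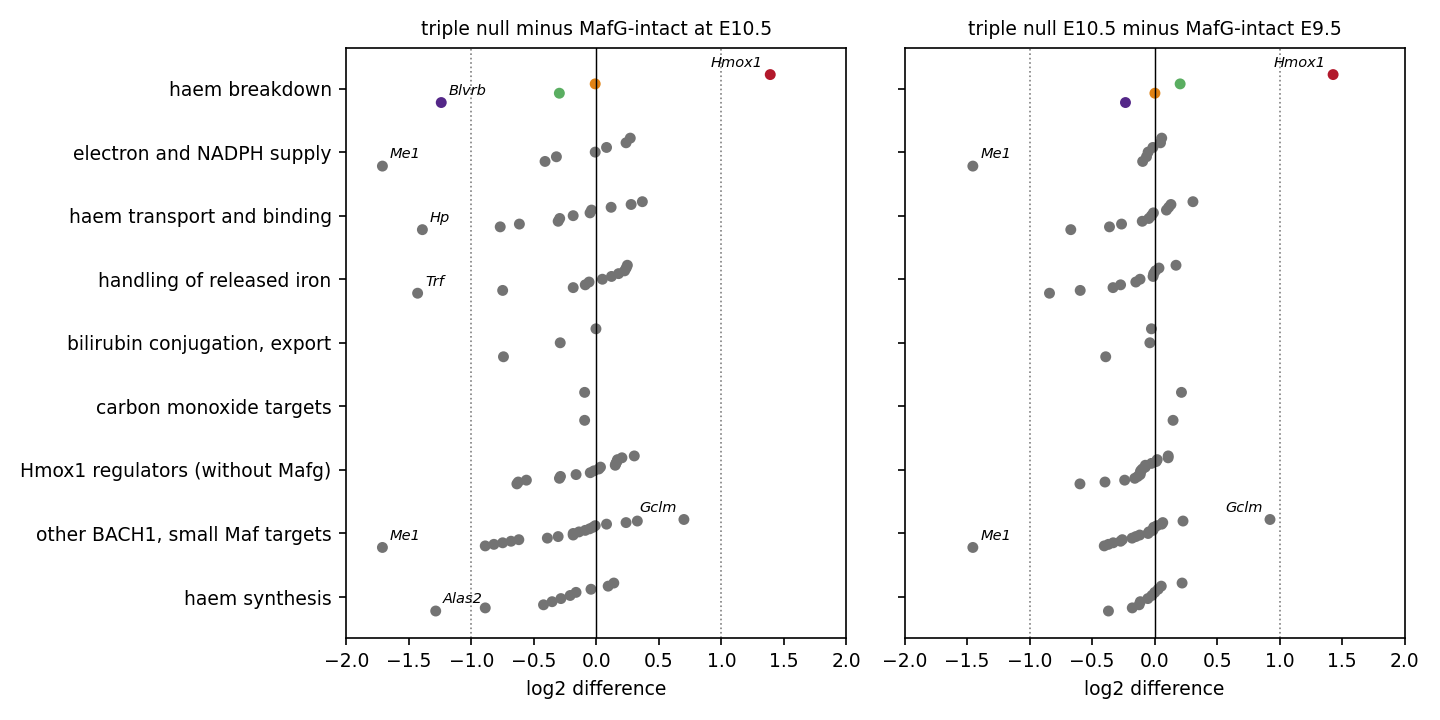
Log2 difference of each measured gene by list, for the genotype comparison (left) and the cross-stage comparison (right); dotted lines mark 2-fold and coloured points the haem breakdown genes. Hmox1 is the 1 point past 2-fold on the higher side in both panels, and Me1 is past 2-fold on the lower side in both.

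Markers of blood cells differed between the pools. Erythroid markers, 15 of 15 above background on every array, had a summed level of 348 in the triple null pool, 616 in MafG-intact E10.5 and 414 in MafG-intact E9.5, in multiples of the 75th percentile. All 15 were below 0 in the genotype comparison and 11 were at least 2-fold lower, beside 4.47% of all genes. Their differences ran between -4.79 and -0.14 with a median of -1.24, and that of Blvrb, -1.24, lay within this wide range. In a whole embryo, fewer cells of a type and less RNA per cell cannot be told apart, and the part of blood content in the Blvrb difference was not tested. Erythroid markers differed by a median of 0.91 between the MafG-intact days and of -0.47 in the cross-stage comparison, beside 1.01 and -0.23 for Blvrb.

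Of 15 macrophage and myeloid markers listed, 11 were measured, and Csf1r and Cd68 had no probe assigned to them. Of the 11 measured, 4 were above background in the triple null pool, 11 in MafG-intact E10.5 and 6 in MafG-intact E9.5. A gene was measured if any array detected it, and Adgre1, C1qa, Cx3cr1, Mrc1 and Ptprc entered through MafG-intact E10.5 alone. The rule thus fixed part of these counts, and the sum below includes these genes. Of all 13184 genes measured, 12429 were above background on every array. The summed level of the 11 markers, dim probes included, was 0.325 in the triple null pool, 1.90 in MafG-intact E10.5 and 0.359 in MafG-intact E9.5. Adgre1, Cx3cr1, Mrc1 and Ptprc, which mark macrophages and white cells, were not above background in the triple null or the MafG-intact E9.5 pool, and Spi1 and Cd163 were not on any array. Lyz2, lysozyme of myeloid cells, was at -2.64 in the triple null pool, -0.84 in MafG-intact E10.5 and -2.70 in MafG-intact E9.5. The part of macrophage content in the Hmox1 differences was not tested.

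Other lists gave the following sums, with the triple null pool before the MafG-intact pools of E10.5 and then E9.5. Endothelial markers (8 of 8 measured) summed to 10.9, 10.7 and 10.6, hepatoblast markers (9 of 10) to 9.34, 21.9 and 14.8, and yolk sac endoderm markers (7 of 10) to 4.58, 4.88 and 9.0. Placental trophoblast markers, 4 of 8 measured, summed to 1.75, 1.32 and 1.99, while neural markers (8 of 8) summed to 12.4, 37.0 and 13.4. Cardiac markers (173, 106 and 136) were the list with the largest excess in the triple null pool over both MafG-intact pools, at 1.63 and 1.27 times, beside 2.62 and 2.69 times for Hmox1. The part of cardiac content in the Hmox1 difference was not tested. Somite and tail bud markers summed to 12.6, 8.09 and 14.4.

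**Figure D4:**
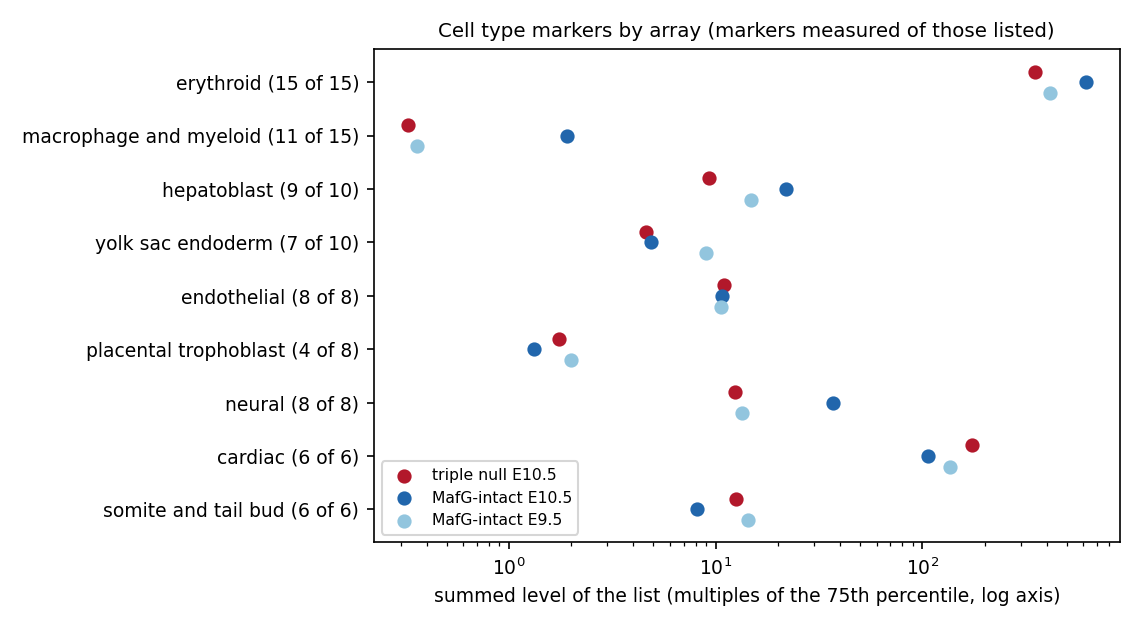
Summed level of each marker list (multiples of the 75th percentile, log axis) in each pool, with the number of markers measured of those listed. Erythroid, macrophage, hepatoblast and neural sums are highest in the MafG-intact E10.5 pool, and the endothelial sums lie within 10.6 to 10.9.

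The direction of the Hmox1 and Blvrb differences in the genotype comparison was the same under all 8 other ways of processing, at 1.31 to 1.42 and -1.25 to -1.07, all past 2-fold. Not all of these could have differed. The probe filters and the brightest probe cannot change a gene with a single probe, and the deposited value table holds the same signal rounded. The other settings changed background correction, normalization or scaling. Without any scaling, a setting added after the data were seen, Hmox1 was 0.99 higher (1.99-fold) and Blvrb was at -1.64, both on the log2 scale. That setting lowers the median of all genes in the genotype comparison to -0.34, against 0.06 as reported, and gives 53 higher and 1170 lower genes, against 123 and 560. In the stage comparison it gives 1161 higher and 63 lower genes, against 516 and 134. Relative to the median of all genes, Hmox1 was 1.33 higher as reported.

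**Figure D5:**
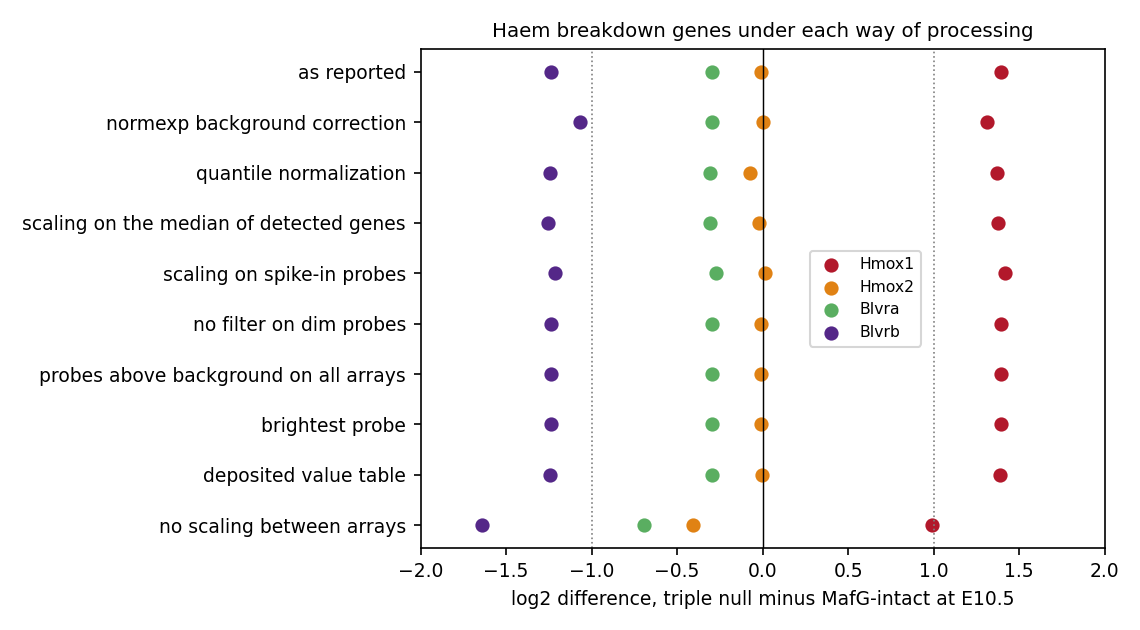
Log2 difference of the 4 genes in the genotype comparison as reported and under 9 other ways of processing; dotted lines mark 2-fold. Hmox1 lies between 1.31 and 1.42 and Blvrb between -1.25 and -1.07 except without scaling between arrays, where they are 0.99 and -1.64. The settings that filter or choose probes could not change these single-probe genes.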

How the data were processed

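Per the labels, total RNA of 3 pooled whole embryos per group was amplified, labelled with Cy3 and put on 1-colour Agilent arrays. Per the file headers, the authors read these with Agilent Feature Extraction 9.5.3.1 (protocol GE1-v5_95_Feb07, design 014868, annotation build mm7), a tool also in the submitters' processing notes. The deposited signal is a linear intensity with background subtracted, and the deposited value table holds it rounded.

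The log2 intensity minus the 75th percentile over 43379 non-control spots of each array (1078 triple null, 1420 MafG-intact E10.5, 1064 MafG-intact E9.5) was used. Outlier spots (52 to 83) were left out, and 22951 of 41174 probes had 1 symbol through GRCm38.p6 RefSeq accessions. Per gene, probes that any array detected above background were averaged. A bound sets the bright array over the higher of the dim probe's signal and the lowest detected signal. A difference counted at 2-fold or more, above background on both arrays. Members and lists were chosen with earlier results of these data known. Named genes were list members at least 2-fold apart in any comparison, otherwise the 2 farthest, and the 5 nearest patterns. A few list members outside this rule are given for their role, and 2 dimmer genes for their closeness to Hmox1. The averaging of probes and the 2-fold call were tested on simulated data. Scaling, detection, bounds, pattern distances and the motif search were not. Python 3.11.15, pandas 2.3.3, numpy 2.4.6, matplotlib 3.10.9, R 4.3.3 and limma 3.58.1 were used. Alternatives changed background correction (normexp, offset 50, on median spot intensity), normalization, scaling, dim-probe filter, probe choice, value table and threshold.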

Additional observations from a re-analysis of the deposited data

How the results depend on the processing

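Under the 8 other ways of processing every difference of the 4 genes moved by less than the spot error of a difference (0.20, log2). Differences at least 2-fold stayed so, except Blvrb in the stage comparison, which was at least 2-fold apart in 5 of 8. The sign of Hmox2, which ranged from -0.0723 to 0.068, turned in 2, 1 and 3 of 8 in the genotype, stage and cross-stage comparison. Each gene has 1 probe, so the probe filters and the brightest probe could not change it. Without scaling, a setting chosen after seeing the data, Hmox1, Hmox2, Blvra and Blvrb were at 0.993, -0.407, -0.693 and -1.64 in the genotype comparison and at 0.453, 0.428, 0.916 and 1.42 in the stage comparison. Genes at least 2-fold apart numbered 683, 650 and 98 as reported, 267, 255 and 27 with normexp, 273, 242 and 28 at 3-fold, 1734, 1701 and 379 at 1.5-fold, and 1223 and 1224 without scaling in the genotype and stage comparison. Spike-in probes (10) differed by medians of 0.02, 0.02 and 0.03 after scaling. Single spike-in probes ran from -0.07 to 0.37 in the genotype, -0.37 to 0.06 in the stage and -0.06 to 0.15 in the cross-stage comparison. No paired analysis was possible because each group is 1 array, and no array could be left out for the same reason.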
